A study of Mus musculus with 30 samples.

Results

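The heat shock proteins are chaperones and their regulator, followed here as 10 genes of 56941 in the count files: the inducible HSP70 genes Hspa1a and Hspa1b, the constitutive HSP70 gene Hspa8, the HSP90 genes Hsp90aa1 and Hsp90ab1, the small heat shock protein gene Hspb1, the HSP110 gene Hsph1, the HSP40 gene Dnajb1, the mitochondrial chaperonin gene Hspd1, and Hsf1, which encodes the heat shock transcription factor. The genes were chosen by symbol, and the Ensembl identifier of each symbol was looked up in every library. The cells were mHypoA-2/12, an immortalised line derived from the hypothalamus of the adult mouse, and all groups came from this single line. Cells received vehicle (0.1% DMSO in culture medium) or cannabidiol (CBD), a compound of Cannabis sativa, in the same amount of DMSO, at 3, 1.5, 0.75 or 0.325 µM for 6 or 24 h, and they were detached with trypsin before RNA was isolated. Each of the 10 groups of dose and time had 3 libraries of 3′ mRNA-Seq, in which 1 fragment is made per transcript, and 15 libraries belonged to each time. The sources do not say whether the 3 libraries of a group came from separate cultures, so the tests measure only the spread between them, which may be technical. In such bulk libraries a change of level in each cell and a change in the share of cells that hold a transcript cannot be told apart.

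Heat shock proteins bind unfolded or stressed proteins and return them to a folded state or hand them on for degradation. In unstressed cells HSP70 and HSP90 hold the factor encoded by Hsf1 inactive, and when misfolded proteins occupy these chaperones the factor binds heat shock elements in DNA and raises the genes of the inducible chaperones within minutes to hours. The constitutive members, Hspa8 and Hsp90ab1 among them, are abundant in all cells and serve protein synthesis and signalling without stress.

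The libraries held 1839621 to 4420675 reads on genes, so that 3 reads corresponded to at most 1.67 CPM (the reads of a gene scaled to a fixed library total, after TMM scaling). One library stood apart and is named throughout: the vehicle library A3 of 6 h. It had 3574833 reads on genes, against 1839621 and 1919498 in the other vehicle libraries of 6 h (A1 and A2), the lowest of all libraries. Of its uniquely aligned reads 17.9% fell outside genes, against 21.4% and 20.8%. This share was not particular to A3, since the CBD libraries of 6 h ran from 17.7% (A13) to 21.1% (A11). Over genes, the counts of A3 and A1 differed by a chi-square of 12.0 per gene, the largest of the 30 pairs of libraries within groups, and those of A1 and A2 by 2.23. A3 was the highest of the 15 libraries of 6 h in 5 of the 10 heat shock genes (Hspa1a, Hspa1b, Hspb1, Hsf1 and Dnajb1), against 13.9% of the 12790 genes tested. A3 was thus singled out partly by its levels of these genes, and fits without it leave A1 and A2 as the vehicle of 6 h. In genes where A3 was high, this choice itself moves the fitted change upward. The adjusted p-values without A3 are therefore given as a description. The part of depth and of reads outside genes in the values of A1, A2 and A3 was not tested. As to the labelled cell type, 5 of 8 neuronal markers averaged at least 1 CPM (Tubb3, Map2, Nefl, Stmn2 and Syn1), and Snap25 and Rbfox3 were at 0.0406 and 0.589 CPM. The 8 neuronal markers summed to 84.2 to 126 CPM, and the 6 fibroblast or mesenchymal markers to 5674 to 7357 CPM. Of 4 microglial markers 2 averaged at least 1 CPM (Tmem119 and Cx3cr1), with a sum of 145 to 342 CPM. The astrocyte list had 1 of 4 (Slc1a2), and the feeding neuropeptides 0 of 4.

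Hspa1a and Hspa1b lie in the same orientation on chromosome 17 of GRCm38 (GENCODE M21), at 34969190 to 34972156 and 34956436 to 34959238 on the minus strand, with starts 12918 bases apart. Their promoters are nearly the same sequence, and heat shock elements, short inverted repeats of GAA, are where the factor encoded by Hsf1 binds. The 2-unit forms GAANNTTC and TTCNNGAA, each of which reads the same on both strands, were searched in the 250 bases before each start in the RefSeq promoter table of GRCm38.p6, which held 6 of the 10 genes. The bases before the start are shown for Hspa1a (chr17:34972157-34972406, minus strand), for Hspa1b (chr17:34959239-34959488, minus strand) and, over 100 bases, for Hspb1 (chr5:135887769-135887868, plus strand), because these are the genes in which A3 stood apart most. For Hspd1, 24 bases before the second of its starts (chr1:55088056-55088079, minus strand) are shown, because it was the only heat shock gene whose window held a 3-unit form, in which 2-unit forms overlap by 3 bases. Capitals mark the matches.
Hspa1a: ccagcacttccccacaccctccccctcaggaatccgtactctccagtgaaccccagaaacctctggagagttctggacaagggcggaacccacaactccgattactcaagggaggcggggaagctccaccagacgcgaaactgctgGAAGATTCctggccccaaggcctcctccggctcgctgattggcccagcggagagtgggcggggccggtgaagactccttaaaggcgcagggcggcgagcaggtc
Hspa1b: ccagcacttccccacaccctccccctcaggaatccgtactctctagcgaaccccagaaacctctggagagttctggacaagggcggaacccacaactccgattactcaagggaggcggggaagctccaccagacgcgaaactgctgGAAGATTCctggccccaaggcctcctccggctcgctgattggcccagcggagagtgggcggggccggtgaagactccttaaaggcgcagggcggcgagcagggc
Hspb1: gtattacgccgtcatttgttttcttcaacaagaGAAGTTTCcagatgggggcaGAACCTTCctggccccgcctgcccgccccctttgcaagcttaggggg
Hspd1: gccTTCCGGAAGGTTCTAGAAcgg
The windows of Hspa1a and Hspa1b were identical at 247 of 250 bases and held 1 match each, beginning 104 bases before the start. Hspb1 held 2 matches, beginning 117 and 97 bases before the start, and the second start of Hspd1 held 3, of which the first began 144 bases before it, in a stretch whose bases are annotated as exonic. Both starts of Hsph1 held 1 match, and both starts of Dnajb1 held 0 in this window. Of the 32851 promoters in the table, 12.8% held a 2-unit form and 0.466% a 3-unit form, so a match is a common feature and is given as a description.

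The 10 genes covered a wide range of levels. On the CPM scale, which counts transcripts and is not divided by length in this protocol, Hsp90ab1 was highest at 6689 ± 1074 CPM (mean ± SD, n = 30), followed by Hsp90aa1 at 1521 ± 196. Hspa8 averaged 408 ± 92.9 CPM, Hspd1 228 ± 48.1, Hsph1 202 ± 40.6, Dnajb1 168 ± 22.9 and Hspb1 119 ± 38.2. Hspa1b averaged 22.4 ± 15.2, Hsf1 21.5 ± 5.58 and Hspa1a 6.11 ± 6.93 CPM. The ranges of Hspd1 and Hsph1 and those of Hspa1b and Hsf1 overlapped widely, so the order within these pairs is not set by the means. The SD of Hspa1a exceeded its mean, and without A3 its 29 values ran from 0.877 to 8.87 CPM. Reads of near-identical copies can be lost where only uniquely mapped reads are counted: of the 100-base windows in the last 500 bases of Hspa8, 82.8% occur also in transcripts of 9 other annotated genes, so the level of Hspa8 is uncertain. For Hspb1 the share was 4.74%, and for the other 8 genes 0 of 401 windows each, Hspa1a and Hspa1b included, so the reads of these copies can be told apart at the 3′ end.

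The first comparison asked whether CBD changed these genes within 6 h. With all 15 libraries 1 of the 10 genes passed the threshold for the 4 doses together against vehicle (false discovery rate, FDR, below 0.1 in the quasi-likelihood test of edgeR), against 0.749% of the 12012 genes tested. This gene was Hspa1a, which encodes an inducible HSP70 that is scarce without stress. In the vehicle libraries A1, A2 and A3 it had 3.34, 1.6 and 41.6 CPM (6, 3 and 150 reads), and in the 12 CBD libraries its lowest, median and highest values were 2.62, 4.67 and 6.31 CPM. A single vehicle library was therefore high, and the other two were below most of the treated libraries. The fitted change was −1.83 ± 0.45 (log2 fold change ± SE), with an adjusted p of 0.0745, and without A3 it was 0.93 ± 0.55 (adjusted p = 0.509). Its direction thus turned without A3, and it passed in 5 of the 15 fits that each left out 1 library (without A1, A2, A7, A13 or A14).

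**Figure D1:**
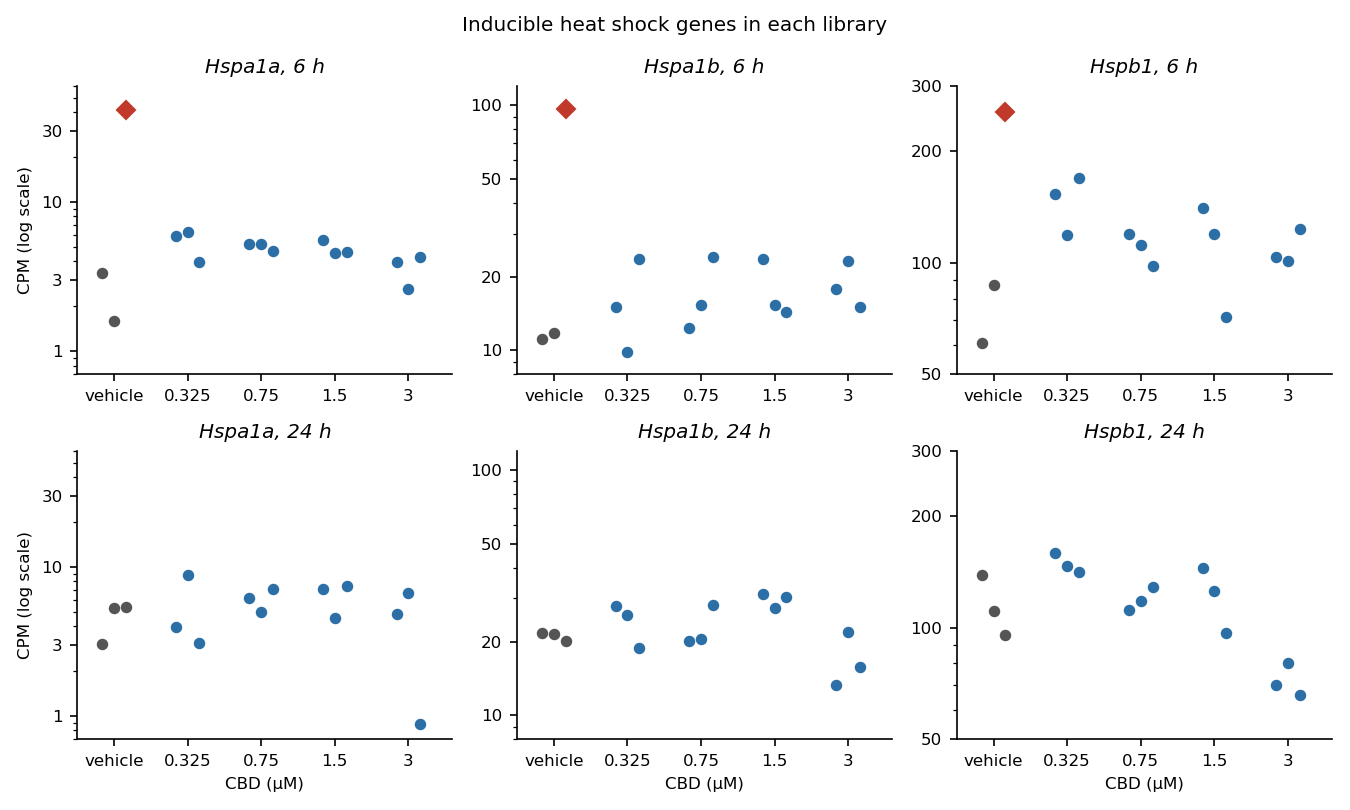
Levels of Hspa1a, Hspa1b and Hspb1 (CPM, log scale) in each of the 3 libraries per group against the CBD dose, at 6 h (top) and 24 h (bottom). Grey points are vehicle, blue points CBD, and the red diamond is vehicle library A3, which reaches 41.6, 96.3 and 255 CPM, while Hspb1 at 3 µM and 24 h stays at or under 80.2 CPM.

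Hspa1b, the second inducible HSP70 gene, followed the same pattern. It had 11.1, 11.7 and 96.3 CPM in A1, A2 and A3, and 9.86, 15.3 and 24.1 CPM (lowest, median and highest) in the CBD libraries of 6 h. The change over the 4 doses was −1.27 ± 0.37 (adjusted p = 0.16; 0.0244 without A1 and 0.0459 without A2), and without A3 it was 0.61 ± 0.33 (adjusted p = 0.451). Hspb1 (chromosome 5, 135887919 to 135889563, plus strand), which encodes the mouse form of the small heat shock protein HSP27, had 60.6, 87.0 and 255 CPM in the vehicle libraries and 71.4, 119 and 169 CPM in the CBD libraries. A1 and A2 were again lower than most treated libraries and A3 higher than all of them. Its change over the 4 doses was −0.22 ± 0.24 (adjusted p = 0.824) with A3 and 0.68 ± 0.19 without it (adjusted p = 0.0676). Relative to the highest of the other 29 libraries, A3 was 4.69 times higher in Hspa1a, 3.07 times in Hspa1b and 1.51 times in Hspb1. Against the median of the other 14 libraries of 6 h, A3 was higher in Hspa8 (398 against 333 CPM) and Hspd1 (283 against 269). It was lower in Hsp90aa1 (1460.5 against 1622 CPM), Hsp90ab1 (5593 against 6637) and Hsph1 (213 against 234).

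Dnajb1 (chromosome 8, 83608193 to 83612653, plus strand), which encodes an HSP40 that delivers substrates to HSP70 and is itself inducible, kept its direction without A3. The vehicle libraries of 6 h had 204, 206 and 220.2 CPM, and the 12 CBD libraries had 122, 154 and 208 CPM. All but 1 of the CBD libraries, A14 at 0.325 µM with 208 CPM, were lower than all vehicle libraries. The change was −0.42 ± 0.12 (adjusted p = 0.16), −0.38 ± 0.14 without A3 (adjusted p = 0.187) and −0.45 ± 0.11 without A14 (adjusted p = 0.0794). With the percentage of reads outside genes as a covariate, an alternative chosen after the data were seen, it was −0.42 ± 0.11 and passed the threshold (adjusted p = 0.0412). Hsf1 had 21.7, 26.1 and 40.3 CPM in A1, A2 and A3 and 13.02, 18.9 and 30.6 CPM in the CBD libraries, a change of −0.56 ± 0.21 (adjusted p = 0.319) that was −0.24 ± 0.25 without A3. The changes of the other 5 genes, Hspa8, Hsp90aa1, Hsp90ab1, Hsph1 and Hspd1, lay between −0.19 and 0.04, with SEs of 0.10 to 0.15. Without A3 they were 0.21 ± 0.16 for Hspa8, −0.17 ± 0.10 for Hsp90aa1, −0.28 ± 0.11 for Hsp90ab1, −0.31 ± 0.12 for Hsph1 and 0.11 ± 0.12 for Hspd1, and none of these passed (adjusted p of 0.206 to 0.762). In 0 of the 10 genes were all CBD libraries on one side of all vehicle libraries, as they were in 1.42% of all genes.

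Without A3, 1 of the 10 genes passed the threshold over the 4 doses (Hspb1, higher with CBD), against 2.47% of the 12324 genes then tested. With the covariate, in a fit that kept A3, 3 of 10 passed, all lower with CBD (Dnajb1, Hspa1b and Hspa1a), against 2.74% of all genes. The covariate fit was not repeated without A3. At the single doses of 6 h, 0 of 10 passed in edgeR at each dose, against 0.2%, 0.0749%, 0.0999% and 0.05% of all genes from the lowest dose to the highest. In edgeR 3, 3, 3 and 4 of the 10 genes had an unadjusted p below 0.05. DESeq2 also called 0 of 10 at each dose, against 71 of 11779, 48 of 11779, 56 of 5724 and 48 of 10149 genes. At 1.5 µM DESeq2 gave no adjusted p for Hsf1, Hspa1b and Hspa1a, so these could not pass there. Hspa1a changed by −1.63 ± 0.64, −1.73 ± 0.63, −1.76 ± 0.65 and −2.19 ± 0.67 at the 4 doses, and without A3 by 1.13 ± 0.62, 1.02 ± 0.62, 0.99 ± 0.63 and 0.56 ± 0.64. These doses share the vehicle libraries, A3 included, and are not independent of each other. Without A3, Hspb1 passed at 0.325 µM (0.99 ± 0.22, adjusted p = 0.0296, against 0.876% of all genes). The vehicle of this fit was A1 and A2 alone, and the library left out was the highest in Hspb1. Among the 4 doses at 6 h 0 of 10 genes differed in edgeR or DESeq2, against 0% of all genes, and 0 of the 10 had an unadjusted p below 0.05.

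**Figure D2:**
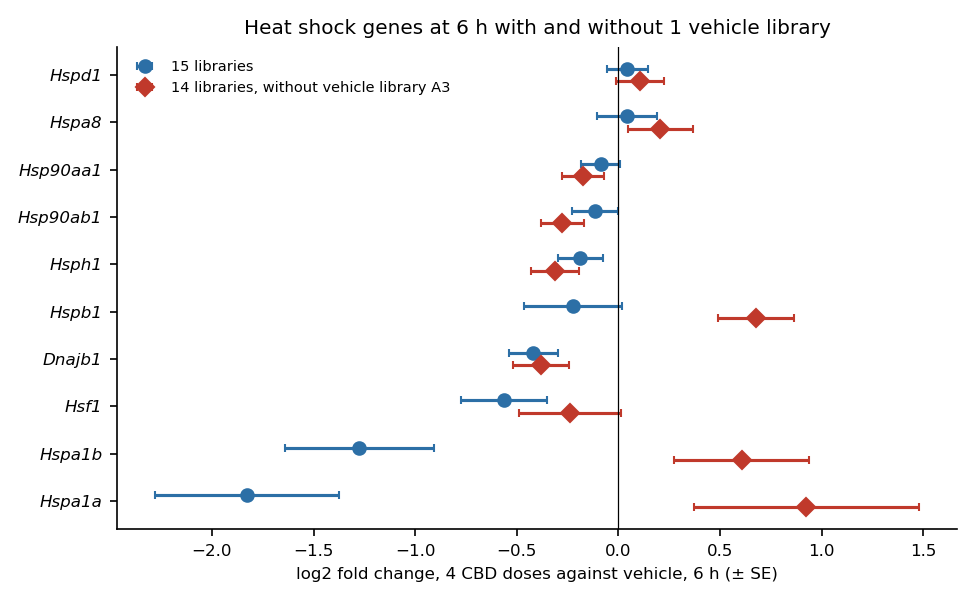
Log2 fold change of the 4 CBD doses together against vehicle at 6 h for each heat shock gene, with bars of ± SE, from 15 libraries (circles) and from 14 libraries without A3 (diamonds). Hspa1a, Hspa1b and Hspb1 change sign between the fits, and Dnajb1 stays at −0.42 and −0.38.

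After 24 h, 0 of the 10 genes passed in edgeR for the 4 doses together against vehicle, against 0.107% of the 12118 genes tested. DESeq2 also called 0 of 10, against 29 of 7654 genes. In edgeR 1 of the 10, Hsf1, had an unadjusted p below 0.05 (−0.35 ± 0.17, adjusted p = 0.738). At the single doses 0 of 10 passed in edgeR, against 0.066%, 0.0825%, 0.0413% and 0.00825% of all genes from the lowest dose to the highest, with 1, 0, 1 and 4 genes at an unadjusted p below 0.05. DESeq2 gave 0, 0, 0 and 1, the last being Hspb1, against 17 of 12118, 40 of 11413, 19 of 5540 and 13 of 10708 genes. It gave no adjusted p for Hsf1, Hspa1b and Hspa1a at 1.5 µM, nor for Hspa1a over the 4 doses together. The inducible genes, which stood out in A3 at 6 h, were even among the vehicle libraries of 24 h: Hspa1a had 3.03, 5.30 and 5.39 CPM and Hspa1b had 21.7, 21.5 and 20.2. Over the 4 doses Hspa1a changed by 0.27 ± 0.40, Hspa1b by 0.12 ± 0.17 and Dnajb1 by −0.03 ± 0.09. In 0 of the 10 genes were all CBD libraries on one side of all vehicle libraries at 24 h, against 0.586% of all genes.

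Between the CBD doses of 24 h some of the genes differed. Any difference among the 4 doses was found by edgeR in 2 of the 10 genes, Hspb1 (adjusted p = 0.00595) and Hsp90ab1 (adjusted p = 0.0827), against 1.93% of all genes. DESeq2 called 3 (Hspb1, Hsp90ab1 and Hsp90aa1), against 526 of 8359 genes. Between 3 µM and the 3 lower doses 4 of the 10 genes passed, 2 higher and 2 lower, against 10.5% of all genes. This contrast was chosen with earlier results of these data known, so its adjusted p-values are not those of a contrast set in advance. Hspb1 was the clearest. It had 69.9, 80.2 and 65.8 CPM at 3 µM, 145, 125 and 96.7 at 1.5 µM, 112, 118 and 128 at 0.75 µM, 159, 147 and 141 at 0.325 µM, and 139, 111 and 95.6 with vehicle. The 3 libraries of 3 µM lay below the other 12 libraries of 24 h, which 1.54% of all genes did in either direction, and below the 9 of the lower doses, as in 4.52% of all genes. The fitted difference from the lower doses was −0.83 ± 0.13 (adjusted p = 0.00118). Against vehicle it was −0.68 ± 0.15, which did not pass in edgeR (adjusted p = 0.237) but passed in DESeq2 (adjusted p = 0.0554).

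**Figure D3:**
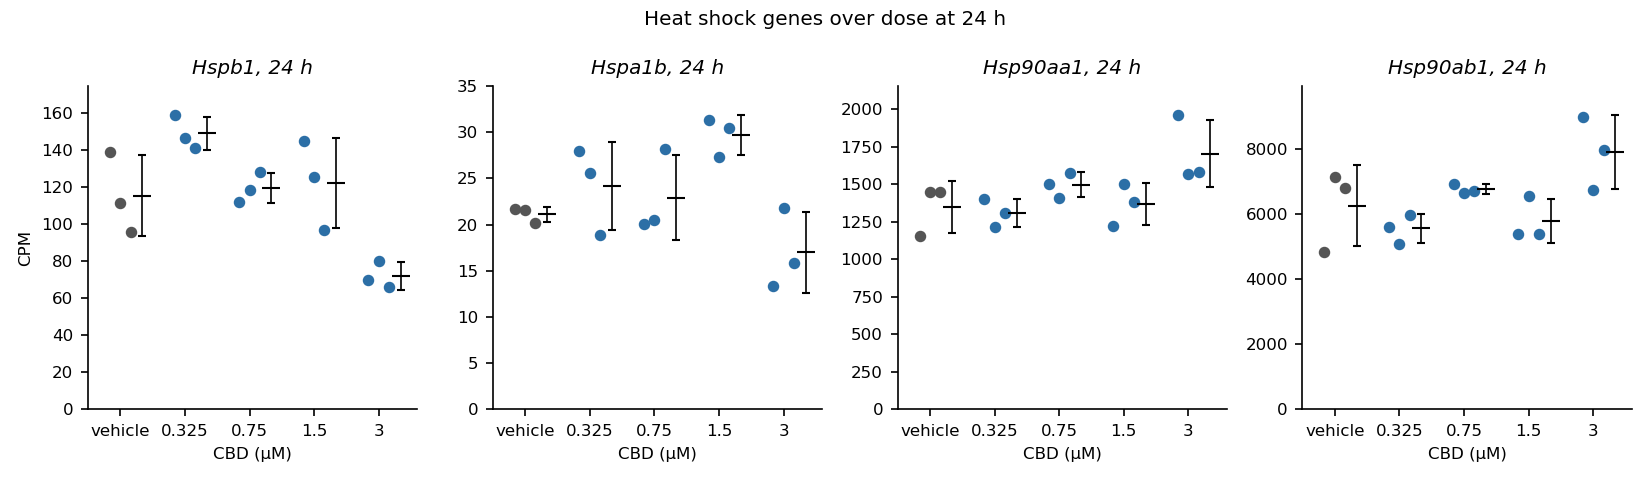
Levels of Hspb1, Hspa1b, Hsp90aa1 and Hsp90ab1 (CPM) in the 3 libraries of each group at 24 h against the CBD dose, with vehicle in grey and the group mean ± SD beside the points. At 3 µM Hspb1 falls to 72.0 ± 7.41 CPM, and the HSP90 genes have their highest group means.

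Hspa1b also was lower at 3 µM, with 13.3, 21.8 and 15.8 CPM, than at the lower doses, which spanned 18.9 to 31.4 CPM, a difference of −0.57 ± 0.19 (adjusted p = 0.075). One library of 3 µM overlapped the lower doses. The HSP90 genes moved the other way. Hsp90ab1 (chromosome 17, 45567775 to 45573271, minus strand), the constitutive HSP90, had 8995, 6736 and 7979 CPM at 3 µM and 5088 to 6929 CPM at the lower doses, a difference of 0.41 ± 0.10 (adjusted p = 0.0196). Hsp90aa1 (chromosome 12, 110690605 to 110702728, minus strand), the more inducible HSP90, had 1958, 1569 and 1582 CPM against 1215 to 1576, a difference of 0.31 ± 0.09 (adjusted p = 0.0465). Against vehicle the HSP90 genes differed by 0.34 ± 0.13 (Hsp90ab1) and 0.35 ± 0.12 (Hsp90aa1), and neither passed (adjusted p = 0.507 for both). Hsph1, whose product resets HSP70 for its next cycle, had 235, 162 and 184 CPM and a difference of 0.27 ± 0.11 (adjusted p = 0.139). Hspa1a differed by −0.49 ± 0.44, Hsf1 by −0.34 ± 0.19, and Hspa8, Dnajb1 and Hspd1 by 0.00, 0.11 and 0.09.

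Other measurements moved with this dose. In the 3 µM libraries of 24 h, 20.8% to 21.7% of reads fell outside genes, against 18.7% to 20.4% at the lower doses, with no overlap, and 20.9% to 22.2% with vehicle. With this percentage as a covariate the differences were −0.66 ± 0.24 for Hspb1, −0.45 ± 0.36 for Hspa1b, 0.50 ± 0.18 for Hsp90aa1 and 0.47 ± 0.20 for Hsp90ab1, and 0 of the 10 genes passed (adjusted p = 0.278, 0.654, 0.275 and 0.348), with 0.248% of all genes called. Library A16 of 3 µM had the highest level of Hsp90aa1 and Hsp90ab1 of the 15 libraries. Without it 1 of 10 genes passed, Hspb1 (−0.82 ± 0.15, adjusted p = 0.0248), against 0.543% of all genes, while Hsp90ab1 was at 0.30 ± 0.10 (adjusted p = 0.21) and Hsp90aa1 at 0.19 ± 0.10 (adjusted p = 0.437). Without A19, a library of 1.5 µM, Hspb1 and Hsp90ab1 still passed, and Hsp90aa1 did not (adjusted p = 0.102). Hspa1b no longer passed without A16, A18, A19, A24, A25 or A26, whereas Hspb1 passed whichever of the 15 libraries of 24 h was left out.

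The difference between 24 h and 6 h in the change from vehicle to CBD passed in edgeR in 0 of the 10 genes. Of the 12790 genes tested 0.235% passed, and 3 of the 10 genes had an unadjusted p below 0.05. DESeq2 also called 0 of 10, against 49 of 11798 genes. Hspa1a had the largest difference, 2.10 ± 0.68 (adjusted p = 0.346), which was −0.66 without A3.

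The level itself moved with time. Time and harvest cannot be told apart in this design, since each time was a harvest of its own. Over the 5 groups 4 of the 10 genes passed between 24 h and 6 h, against 58.9% of all genes, so the share among the heat shock genes was not above that of genes at large. Hspd1 (chromosome 1, 55077835 to 55088243, minus strand), the HSP60 of the mitochondrial matrix, was lower at 24 h in the means of all 5 groups. It had 237 to 308 CPM at 6 h (median 270.2, n = 15) and 139 to 219 CPM at 24 h (median 185), with no overlap between the 30 libraries, as in 2.25% of all genes. The difference was −0.55 ± 0.06 (adjusted p = 2.02e-09). Hsph1 fell from a median of 229 CPM (193 to 303) to 164 (146 to 235), by 0.46 ± 0.06 on the log2 scale (adjusted p = 8.18e-08), and the ranges overlapped. Over the groups together Hsp90aa1 fell by 0.15 ± 0.05 (adjusted p = 0.0199), from a median of 1583 CPM to 1445. This fall did not hold at 3 µM, where Hsp90aa1 had 1375, 1345 and 1439 CPM at 6 h and 1958, 1569 and 1582 at 24 h. In the means of all other groups it was lower at 24 h. Hspa8 rose by 0.49 ± 0.08 (adjusted p = 2.09e-06), from a median of 336 CPM (231 to 441) to 459 (388 to 624), with the uncertainty on its reads given above.

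**Figure D4:**
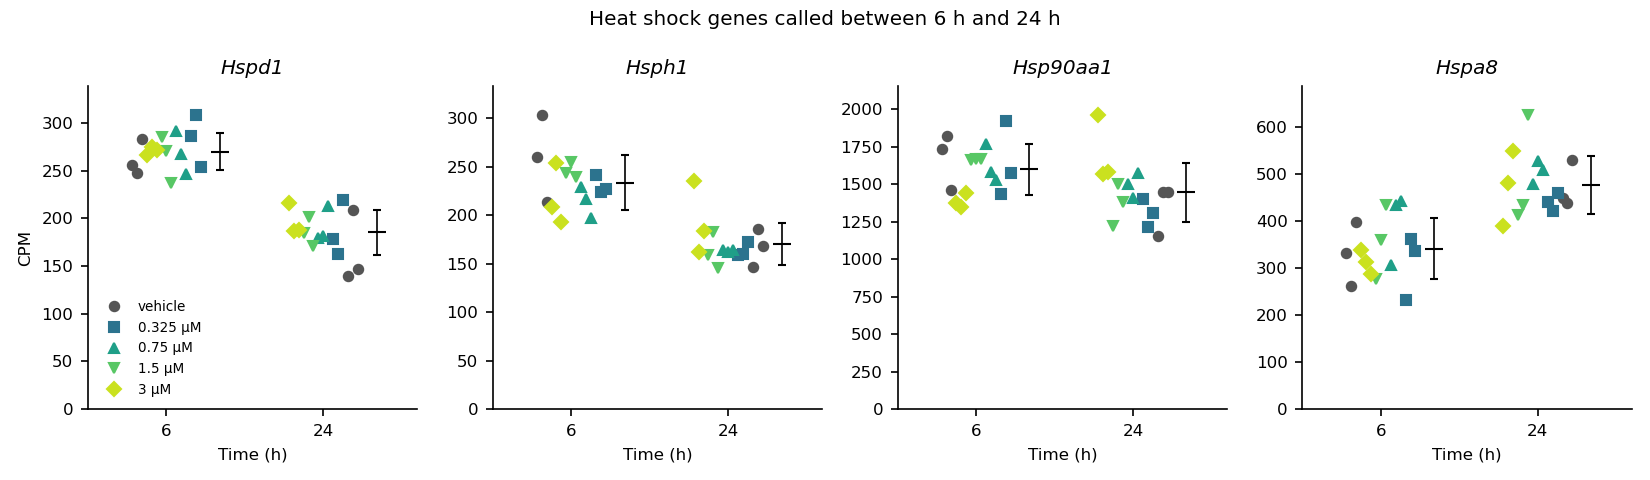
Levels of Hspd1, Hsph1, Hsp90aa1 and Hspa8 (CPM) in the 15 libraries of 6 h and the 15 of 24 h, with symbols by dose and the mean ± SD of each time beside the points. Hspd1 at 24 h, at most 219 CPM, lies under its lowest value at 6 h, 237 CPM.

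Without A3, 6 of the 10 genes passed over the 5 groups, against 58.0% of all genes: Hspa1b then rose by 0.51 ± 0.13 (adjusted p = 0.000986), from 0.12 ± 0.20 with A3, and Hsp90ab1 fell by 0.13 ± 0.06 (adjusted p = 0.0609). The 3 µM group went the other way in Hsp90ab1, from 5836 to 6196 CPM at 6 h to 6736 to 8995 CPM at 24 h. Its mean at 0.75 µM also was higher at 24 h, and those of the remaining groups were lower. In the vehicle groups alone, 6 of 10 genes passed with A3, 1 higher and 5 lower at 24 h, against 26.7% of all genes. Hspd1 fell by 0.67 ± 0.14, Hsph1 by 0.63 ± 0.14 and Hsp90aa1 by 0.31 ± 0.12, and Hspa8 rose by 0.51 ± 0.17. The remaining calls were Hspa1a (−1.90 ± 0.59) and Hspa1b (−1.01 ± 0.41), which without A3 were 0.88 ± 0.64 and 0.90 ± 0.34. Without A3 7 of 10 genes passed, 3 higher and 4 lower, against 20.2% of all genes, among them Hspb1 at 0.66 ± 0.21 (adjusted p = 0.0289).

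The wider chaperone network was described by 60 further genes in 6 lists. At 6 h 0 of the 51 tested passed over the 4 doses in edgeR and DESeq2 (3 at an unadjusted p below 0.05), with a median change of −0.08, against −0.02 for all genes. Bag5, a co-chaperone that acts as a nucleotide exchange factor of HSP70, had the smallest p (−0.54 ± 0.20, adjusted p = 0.299). At 24 h 0 of 51 passed in both tools (2 at an unadjusted p below 0.05), with a median of 0.02, against −0.01 for all genes, and Hspa4, an HSP110, had the smallest p (0.22 ± 0.09, adjusted p = 0.667). Between 3 µM and the lower doses at 24 h 9 of 51 passed, 5 higher and 4 lower, against 10.5% of all genes, with a median of 0.08, against 0.01 for all genes. Over all genes this contrast called 1275 of 12118, but 68 of 12521 without A16 and 30 of 12118 with the covariate. How the network calls depend on A16 or the covariate was not examined. St13, which links HSP70 to HSP90, was higher (436 ± 65.8 CPM against 329 ± 28.1), as were Hspb8, Cct5 and Bag1. Cryab, a small heat shock protein like Hspb1, was lower (158 ± 31.03 CPM against 221 ± 23.5, a difference of −0.47 ± 0.12, adjusted p = 0.0237), as were Hspa14, Dnaja3 and Trap1, the last 2 encoding mitochondrial chaperones.

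Between 24 h and 6 h, 39 of the 54 network genes tested passed, 11 higher and 28 lower, against 58.9% of all genes, with a median of −0.16, against −0.01 for all genes. Over all 12790 genes tested, 3636 were called higher and 3899 lower. All 9 chaperonin genes were lower, by 0.14 to 0.59 on the log2 scale. Hspe1, the HSP10 that caps the HSP60 ring of Hspd1, fell from 300.1 ± 38.1 to 206 ± 20.96 CPM (n = 15 each, −0.55 ± 0.06, adjusted p = 3.62e-09), and Hspa9, the HSP70 of mitochondria, from 373 ± 56.8 to 216 ± 19.7 (−0.78 ± 0.06, adjusted p = 1.6e-13). Cct6a and Cct3, subunits of the cytosolic chaperonin that folds actin and tubulin, fell by 0.59 ± 0.05 and 0.47 ± 0.06. Of the HSP70 family 2 genes rose, Hspa12b (0.82 ± 0.13) and Hspa2 (0.71 ± 0.17), and 4 fell. Of the 18 co-chaperone genes tested 2 rose and 8 fell, and of 13 HSP40 genes 4 rose and 6 fell. Of the 4 small heat shock protein genes tested, 2 rose, among them Hspb6 (0.44 ± 0.09), and Hsbp1, whose product binds the factor of Hsf1 and restrains it, rose by 0.31 ± 0.06.

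**Figure D5:**
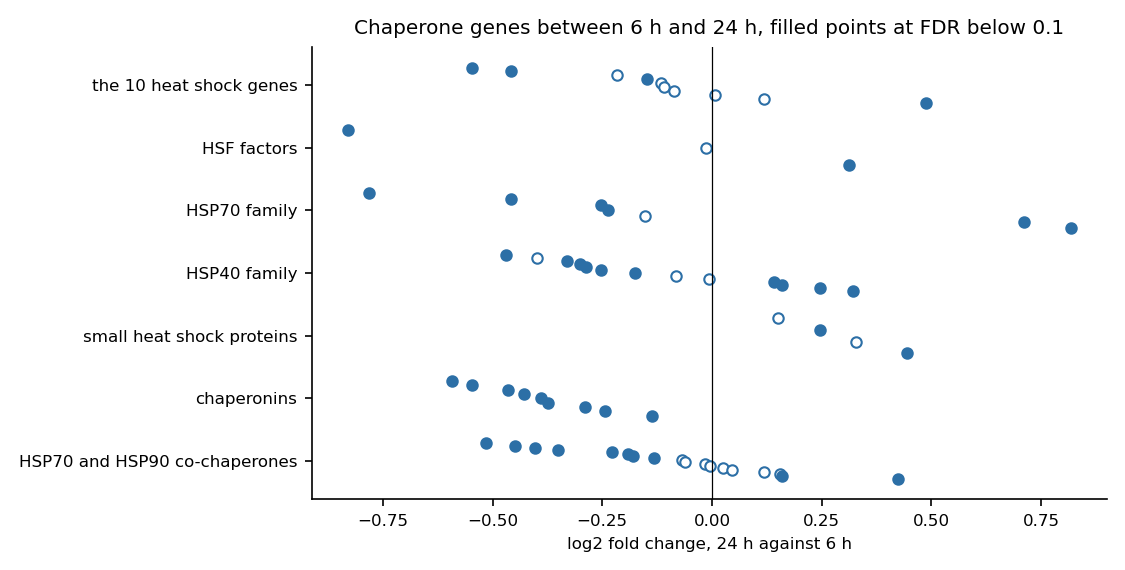
Log2 fold change of 24 h against 6 h over the 5 groups for each gene tested, by list, with filled points at FDR below 0.1 and open points above it. All 9 chaperonin genes lie on the negative side, and 39 of the 54 genes of the 6 lists are filled.

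The levels of the 10 genes were compared with those of other genes over the 30 libraries, as a description, since the libraries share time, dose and depth. For Hsp90aa1 the most alike was Hsp90ab1 (Pearson r = 0.889 on log2 CPM, 0.898 without A3), followed by Psmc5, a proteasome subunit (0.874), and Metap2 (0.851). Hspa1a had Srsf7, Umps and Hspa1b as nearest genes (0.675, 0.674 and 0.665). Their order rested on A3: without it the likeness of Hspa1b to Hspa1a was 0.331, and the nearest genes became Mrps35, Nsmaf and Pdhx (0.728, 0.668 and 0.643). For Hspa1b the nearest were Atp2a2, Prkci and Cxcl1 (0.835, 0.829 and 0.824), and without A3 Fbxo45, Pdgfrb and Grb10 (0.894, 0.886 and 0.857). Hspb1 had Eif1, Cbr3 and Rps16 (0.849, 0.801 and 0.786), and without A3 Psmb4, Eif1 and Rps29 (0.812, 0.795 and 0.791). Within the 15 libraries of 24 h, Hspb1 was inversely related to Hsp90ab1 (r = −0.76) and Hsp90aa1 (r = −0.74), the genes that moved opposite to it at 3 µM. These values include the 3 µM libraries and so in part restate that difference. At 6 h without A3 they were −0.38 and −0.22. Hspd1 and Hsph1 were alike over all libraries (r = 0.806). Within the times r was 0.603 at 24 h and −0.12 at 6 h without A3.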

How the data were processed

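Deposited values were raw read counts per gene. Per the study's methods, the authors checked reads with FastQC (version 0.11.9), trimmed them with Flexbar, aligned them to GRCm39 with STAR (2.7.5c, Ensembl annotation) and counted them with HTSeq (1.99.2). The rows of the count files that name no gene were kept out of all totals and held 37.4% to 41.1% of the reads listed per library, of which reads that aligned to more than 1 place were 17.5% to 21.7% of all. Reads outside genes are given as a percentage of the uniquely aligned reads (17.7% to 22.2%). CPM were computed on library totals scaled by TMM. Genes were filtered by filterByExpr and tested by the quasi-likelihood test of edgeR 4.0.16 in R 4.3.3, with TMM scaling, within 6 h (12012 genes), within 24 h (12118) or over 30 libraries (12790). P-values were adjusted after Benjamini and Hochberg over all genes tested, at an FDR threshold of 0.1 as in the study, and an SE is the log2 fold change divided by the root of F. Tests were checked on simulated counts. DESeq2 1.42.0, RLE scaling, other filters, single libraries left out and 1 covariate were the alternatives. The 10 genes were fixed by symbol and named throughout, and of the network at most 4 genes past the threshold in each direction, by smallest p, or, with none past it, the gene of smallest p. The genes, the lists and the contrast of 3 µM with the lower doses were chosen with earlier results of these data known. Promoters came from RefSeq (GRCm38.p6) and positions from GENCODE M21 on GRCm38, not the build of the counts. Between libraries of a group the counts differed by a chi-square of at least 2.17 per gene on unscaled library totals, above the sampling noise. Each library was counted as 1 sample, but this spread may be technical and does not show separate cultures.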

Additional observations from a re-analysis of the deposited data

How the results depend on the processing

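Of the 10 heat shock genes, 1 passed over the 4 doses at 6 h, but 0 passed in DESeq2, 0 with at least 10 counts in every library (a filter that removed Hspa1a), 3 without a filter on low counts and 3 with the percentage of reads outside genes as a covariate, and 0 to 2 with 1 library left out (0 to 2 of the network). Over all genes tested, 132 of 12012 were called in DESeq2 and 66 of 8993 with at least 10 counts. Without the filter 263 of 25247 were called, and with the covariate 329 of 12012. At the single doses of 6 h, against 0 each, 2 passed at each dose without the filter, 2 at 0.325 µM and 1 at 0.75 µM with the covariate, and 0 to 1 at 0.325 µM with 1 library left out. Over all genes, 151, 101, 106 and 92 of 25247 were called without the filter from the lowest dose to the highest. With the covariate 322 and 119 of 12012 were called at 0.325 and 0.75 µM. For 3 µM against vehicle at 24 h, against 0, 1 passed in DESeq2, 1 without the filter and 0 to 2 with 1 library left out. DESeq2 called 13 of 10708 genes there, and the fit without the filter 116 of 25432. For any difference among the doses at 24 h, against 2, 0 passed with the covariate and 0 to 4 with 1 library left out, and for 3 µM against the lower doses, against 4, 0 and 1 to 5. The covariate fits called 1 and 30 of 12118 genes. Without A16, 3 µM against the lower doses called 68 of 12521. For the difference between times in the change, against 0, 2 passed without the filter (87 of 27561 genes called) and 0 to 2 with 1 library left out. For vehicle between the times, against 6, 3 passed when only these groups were fitted and 3 to 7 with 1 library left out. The number called over all genes also moved between the alternatives, so these counts are given as a description. The covariate was chosen after the data were seen, and it turned Hspa1b between the times in vehicle to 0.19. Leaving out vehicle library A3 turned the sign of Hspa1a in 8 of 8 comparisons, of Hspa1b in 7, of Hspb1 in 7 and of Hspa8 and Hsf1 in 2 each, most of them not past the threshold. With 1 library left out, the log2 fold change over the 4 doses at 6 h ran from −2.31 to 0.93 in Hspa1a and −1.68 to 0.61 in Hspa1b. At 0.325 µM it ran from −2.11 to 1.13 and −1.81 to 0.49, at 0.75 µM from −2.21 to 1.02 and −1.68 to 0.60, at 1.5 µM from −2.25 to 0.99 and −1.66 to 0.64, and at 3 µM from −2.67 to 0.56 and −1.59 to 0.70. The difference between times ran from −0.66 to 2.59 and −0.49 to 1.81, and vehicle between the times from −2.38 to 0.88 and −1.41 to 0.90. The cause was not tested. All other counts, 107 under other alternatives and 315 with 1 library left out, stayed within 1.5 times. No paired analysis was possible because the groups share no replicate numbers. Depth limits Hspa1a most, since 3 reads were up to 1.67 CPM.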
